A study of Mus musculus with 8 samples.

Results

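The 10 genes described here, Arc, Homer1, Nptx2, Ptgs2, Plk2, Dusp1, Dusp5, Dusp6, Btg2 and Sik1, encode proteins other than transcription factors that neurons produce in response to activity. They were chosen by name from a list of activity genes whose levels had already been seen to differ between these libraries, in KO against Y402F and between the wild-type pairs, so their differences are given as a description and not as independent support for any pattern. All 10 were found among the 17652 genes that could be matched between the 2 kinds of expression table, all 10 were above 0 in all 8 libraries, and all 10 passed the filter that left 12940 genes tested. By mean level they ranked from 1135 (Plk2) to 10851 (Sik1) among the tested genes.

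The 8 libraries were made from hippocampal total RNA of C57BL/6 mice, 2 in each of 4 groups. KO libraries came from mice in which Pyk2, the calcium-responsive tyrosine kinase encoded by Ptk2b, was knocked out with CRISPR, and Y402F libraries from mice carrying a CRISPR-made change of the tyrosine at which Pyk2 autophosphorylates. KO control and Y402F control libraries came from wild-type mice of each line. The labels give no age, sex, treatment or behavioural test, and do not say which part of Ptk2b was removed. They also leave unsaid whether each library is from a single animal, so a p-value here reflects library-to-library spread that could be technical.

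Activity genes of this kind are transcribed within minutes to hours after synaptic input raises calcium in a neuron. Calcium entry activates the Ras, ERK and calcium/calmodulin-dependent kinase pathways, which phosphorylate the transcription factors CREB, at the cAMP response element (CRE), and Elk1 with SRF, at the serum response element. A first set of induced genes encodes transcription factors such as Fos and Egr1, and the set described here acts directly: on glutamate receptors and spines (Arc, Homer1, Nptx2, Plk2), on lipid signalling (Ptgs2), on the MAP kinases themselves as negative feedback (Dusp1, Dusp5, Dusp6), and on transcription and its cofactors (Btg2, Sik1). In the hippocampus they are known as marks of recent activity in learning and memory.

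The promoter sequence shows which of these control elements the members share, so the relevant stretches are printed here. RefSeq promoters (GRCm38.p6) were given for 7 of the 10 members; Arc, Nptx2 and Sik1 were not in the table. The 250 bases before each start were searched for the full CRE (TGACGTCA), its shorter core (TGACG), the CArG box of the serum response element, the AP-1 motif (TGANTCA) and the Egr motif (GCGNGGGCG) on both strands, and for the TATA box (TATAAA) on the gene's own strand; each full CRE also contains the shorter core. In the lines that follow, read 5′ to 3′ on the gene's strand, capitals mark these matches.
Btg2: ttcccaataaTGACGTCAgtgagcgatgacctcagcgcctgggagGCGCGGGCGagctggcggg
Dusp1: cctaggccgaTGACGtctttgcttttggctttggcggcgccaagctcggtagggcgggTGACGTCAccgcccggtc
Plk2: gcgctcgccgTGACGTCAcgaggccccg
Homer1: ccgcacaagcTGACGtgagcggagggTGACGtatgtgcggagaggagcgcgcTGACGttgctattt
Dusp5: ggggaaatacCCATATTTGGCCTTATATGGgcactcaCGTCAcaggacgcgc

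The elements were shared by some members and not by others. Btg2 (window chr1:134079156-134079405, minus strand), Dusp1 (chr17:26508473-26508722, minus strand) and Plk2 (chr13:110394794-110395043, plus strand) each held a full CRE, at -166 to -159, -143 to -136 and -62 to -55 from the start; 1.55% of 32851 mouse promoters of this length held one. Homer1 (chr13:93303507-93303756, plus strand) held only the shorter core, at 3 places, and Dusp5 (chr19:53528895-53529144, plus strand) held it once on the opposite strand; 5 of the 7 members had the shorter core somewhere, against 17.8% of all promoters. Dusp5 was the member with CArG boxes, which lie side by side at -82 to -73 and -72 to -63, against 1.47% of promoters with at least 1. Btg2 also held the Egr motif (-131 to -123), which 4.70% of promoters had. No member window held the AP-1 motif or the TATA box, which 6.75% and 7.59% of promoters held, and the windows of Dusp6, Ptgs2 and a second Homer1 start held none of the 6. A match is a string of letters in a window and not a measured binding site.

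Levels are given as scaled FPKM, the deposited FPKM (fragments per length of transcript and per library size) after division by 1 factor per library, in the order of the replicate numbers. Mutant libraries held 5756180 to 6017219 expected counts, and the control tables hold no counts. Ptk2b was at 56.1 and 68.7 in KO, 353 and 396 in Y402F, 309 and 308 in KO controls and 323 and 317 in Y402F controls, so the KO labels match its level. The mutant tables and the control tables came from different processing, so in every comparison of a mutant with its controls the processing and the genotype cannot be told apart. Neuronal markers were present throughout: all 7 hippocampal neuron markers (Rbfox3, Snap25, Syt1, Camk2a, Slc17a7, Neurod6, Zbtb20) were above 1 scaled FPKM in every library.

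**Figure D1:**
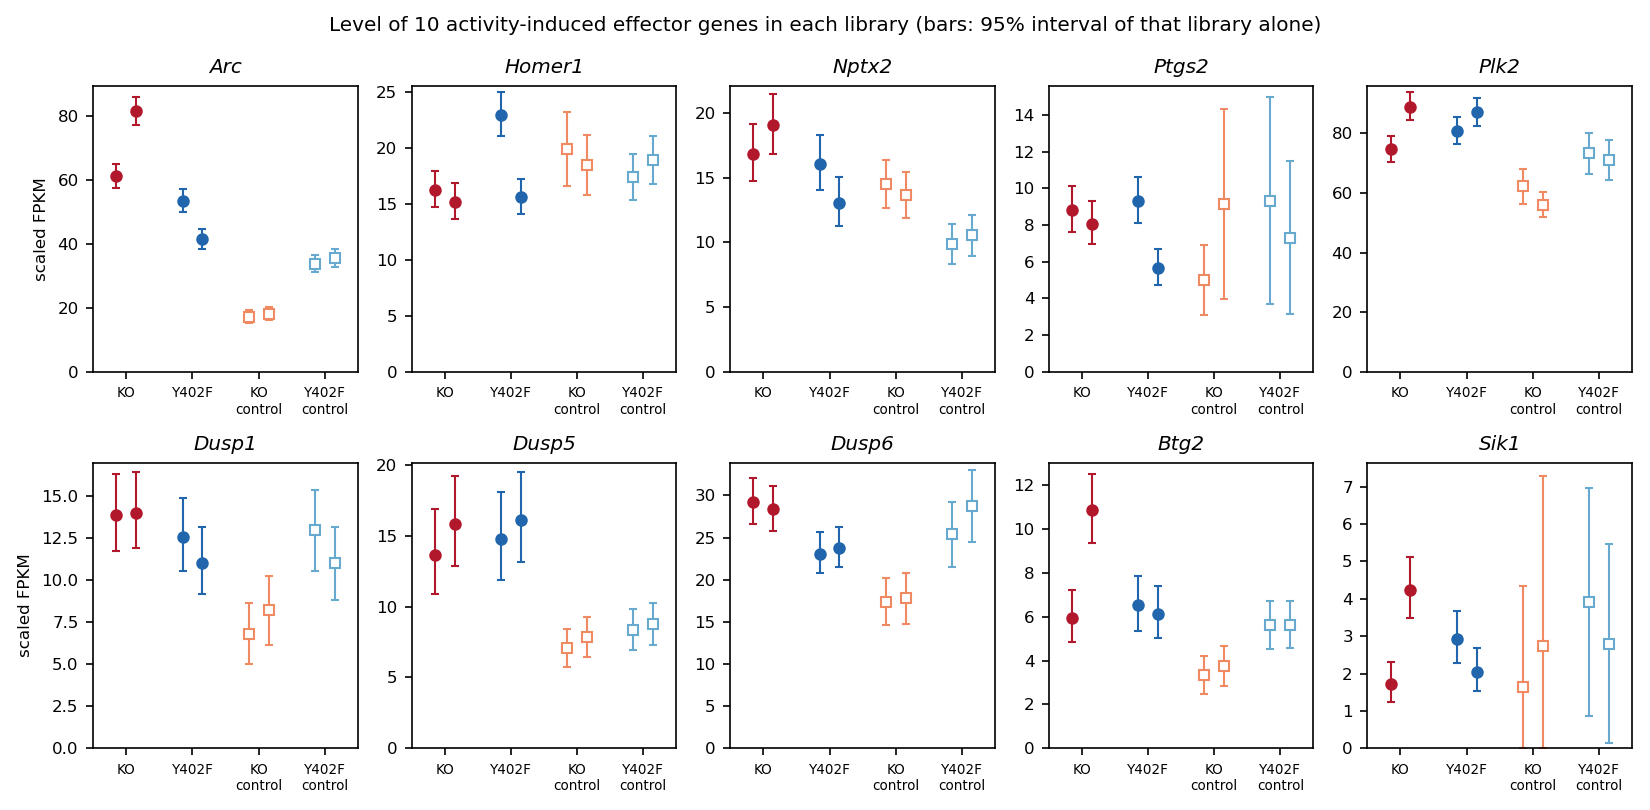
Level of each gene in each library in scaled FPKM on a linear axis from 0, by group (KO, Y402F, KO control, Y402F control); each point is 1 library and each bar its own 95% interval (counting error for mutant libraries, the deposited confidence bounds for control libraries). The KO points of Arc (61.0 and 81.4) lie above all others, and the bars of Ptgs2 and Sik1 in the control libraries span much of their panels.

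Arc (Entrez 11838; chromosome 15, 74669083 to 74672570 on GRCm38, minus strand) encodes a capsid-like postsynaptic protein that promotes the removal of AMPA receptors from the synapse. Its level was 61.0 and 81.4 scaled FPKM in KO, 53.5 and 41.4 in Y402F, 17.3 and 18.2 in KO controls, and 33.7 and 35.6 in Y402F controls. In mean level the order was therefore KO (71.2 ± 14.4, SD, n = 2), Y402F (47.4 ± 8.54), Y402F controls (34.7 ± 1.32) and KO controls (17.7 ± 0.640), and no neighbouring groups in that order overlapped. KO replicate 2 stood 1.33 times above replicate 1 and Y402F replicate 1 stood 1.29 times above replicate 2, whereas the control libraries of a line lay within 1.06 times of each other. The expected counts behind the mutant values were 1028 and 1403 in KO and 901 and 723 in Y402F and their 95% counting intervals did not overlap between any of the 4 libraries.

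Homer1 (Entrez 26556; chromosome 13, 93299635 to 93405129, plus strand) encodes a scaffold that links metabotropic glutamate receptors to Shank and to the calcium store channel. Its activity-induced product is a short isoform that competes with the long scaffold, and the gene-level values here sum over isoforms: the mutant tables list 4 transcripts for it. Homer1 was at 16.3 and 15.2 scaled FPKM in KO, 22.9 and 15.6 in Y402F, 19.9 and 18.5 in KO controls and 17.4 and 18.9 in Y402F controls. Y402F replicate 1 stood apart, 1.47 times above the other Y402F library, and the other 7 libraries lay between 15.2 and 19.9. Both KO libraries lay below all 4 control libraries, the control groups overlapped each other, and Y402F overlapped every other group.

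Nptx2 (Entrez 53324; chromosome 5, 144545902 to 144557478, plus strand) encodes a secreted pentraxin that clusters AMPA receptors at excitatory synapses on interneurons. It was at 16.8 and 19.0 scaled FPKM in KO, 16.0 and 13.1 in Y402F, 14.5 and 13.7 in KO controls and 9.87 and 10.5 in Y402F controls. The KO libraries were the highest and the Y402F controls the lowest, and Nptx2 was the member whose KO control libraries both lay above the Y402F controls.

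Plk2 (Entrez 20620; chromosome 13, 110395046 to 110400844, plus strand), a kinase that weakens synapses by acting on Ras and Rap regulators, had the highest level of the 10 in every library. It was at 74.7 and 89.0 scaled FPKM in KO, 80.8 and 87.0 in Y402F, 62.2 and 56.0 in KO controls and 73.4 and 71.1 in Y402F controls. The mutant libraries overlapped each other and lay above the control libraries, with KO controls lowest. The expected counts of 1152 to 1405 make it one of the more precisely counted members.

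Ptgs2 (Entrez 19225; chromosome 1, 150100031 to 150108227, plus strand) encodes cyclooxygenase 2, the inducible enzyme that starts prostaglandin synthesis. Its level was 8.81 and 8.05 scaled FPKM in KO, 9.28 and 5.63 in Y402F, 4.996 and 9.14 in KO controls and 9.32 and 7.32 in Y402F controls. The libraries of a group differed by up to 1.83 times (KO controls), while the group means lay between 7.07 and 8.43. The confidence bounds of KO control replicate 2 alone ran from 3.95 to 14.3, wider than the range of the group means.

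Dusp1, Dusp5 and Dusp6 encode MAP kinase phosphatases; Dusp1 is nuclear and favours p38 and JNK, Dusp5 is nuclear and acts on ERK, and Dusp6 is cytoplasmic and acts on ERK. Dusp6 (Entrez 67603; chromosome 10, 99263231 to 99267489, plus strand) was at 29.3 and 28.4 scaled FPKM in KO, 23.1 and 23.8 in Y402F, 17.4 and 17.8 in KO controls and 25.4 and 28.8 in Y402F controls. Libraries of a group lay within 1.13 times of each other, the closest of the 10 members. The order of the group means was KO, Y402F controls, Y402F and KO controls; KO and Y402F controls overlapped, and the other neighbours did not. The KO control libraries stood lowest, as those of Arc did.

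Dusp1 (Entrez 19252; chromosome 17, 26505590 to 26562128, minus strand) was at 13.9 and 14.0 scaled FPKM in KO, 12.5 and 11.01 in Y402F, 6.81 and 8.18 in KO controls and 13.0 and 10.98 in Y402F controls. The KO controls lay apart below the other 6 libraries, and the Y402F libraries overlapped their controls. The control annotation gives Dusp1 a long model that runs through the protein-coding gene Ergic1 on the other strand. Whether reads were counted by strand is not stated, so reads of the overlapping genes cannot be told apart.

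Dusp5 (Entrez 240672; chromosome 19, 53529109 to 53542431, plus strand) was at 13.6 and 15.8 scaled FPKM in KO, 14.7 and 16.1 in Y402F, 7.07 and 7.83 in KO controls and 8.37 and 8.80 in Y402F controls. The mutant libraries thus lay together above all control libraries. The mutant tables give Dusp5 a length of 1155 bases, whereas its GENCODE transcript has 2473 bases. With the same counts spread over the GENCODE length, the mutant values would be 6.37, 7.39, 6.88 and 7.51 scaled FPKM. These lie within or below the range of their controls. The counts belong to the 1155-base model, however, and any reads on the rest of the longer transcript would add to them. The values are therefore lower bounds. They cannot show where the mutants would lie under a shared gene model, which was not tested. An antisense gene, AC137853.2, overlaps Dusp5.

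Btg2 (Entrez 12227; chromosome 1, 134075170 to 134079120, minus strand), an antiproliferative cofactor of transcription and mRNA deadenylation, was at 5.95 and 10.9 scaled FPKM in KO, 6.53 and 6.13 in Y402F, 3.34 and 3.77 in KO controls and 5.63 and 5.64 in Y402F controls. KO replicate 2 stood 1.83 times above replicate 1, which lay within the range of the Y402F libraries and their controls. Sik1 (Entrez 17691; chromosome 17, 31844250 to 31855804, minus strand), a salt-inducible kinase that restrains CREB by phosphorylating its coactivators, had the lowest level of the 10 in every library, at 1.72 and 4.23 in KO, 2.92 and 2.05 in Y402F, 1.65 and 2.72 in KO controls and 3.92 and 2.80 in Y402F controls. Its KO libraries differed by 2.46 times, with expected counts of 43 and 108, and its confidence bounds in the KO controls reached down to 0. The 95% counting intervals of the KO libraries (31.1 to 57.9 and 88.6 to 130 counts) did not overlap, so these libraries differed by more than counting error.

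In KO against Y402F, the comparison in which tables of the same kind meet, Arc had the largest difference of the members. KO libraries held 1.502 times the mean Arc level of Y402F libraries, a log2 difference of 0.59 (SE 0.17, edgeR adjusted p = 0.999). Btg2 (0.41, SE 0.24), Nptx2 (0.30, SE 0.18), Dusp6 (0.30, SE 0.15), Sik1 (0.26, SE 0.32), Dusp1 (0.24, SE 0.19) and Ptgs2 (0.18, SE 0.21) also had positive log2 differences, and Homer1 (-0.31, SE 0.17), Dusp5 (-0.07, SE 0.21) and Plk2 (-0.04, SE 0.15) negative ones. The median of the 10 was 0.25, beside -0.0046 over all 13473 genes tested. None of the 10 passed edgeR's quasi-likelihood test (adjusted p under 0.05 by Benjamini-Hochberg), which called 0.0148% of all genes, namely 2 (Ptk2b and the activity transcription factor Npas4); Arc alone had an unadjusted p under 0.05, and DESeq2 also called 0 members. The KO libraries lay above both Y402F libraries for 4 members (Arc, Nptx2, Dusp1, Dusp6), as they did for 12.7% of all genes. Leaving out Y402F replicate 1 gave an Arc difference of 0.78 with an edgeR adjusted p of 0.0201, in a fit where the lone Y402F library is assumed to vary like the KO pair. Leaving out KO replicate 2 gave 0.38 for Arc (edgeR adjusted p = 1.00), turned Btg2 to -0.08 and Sik1 to -0.51, and lowered the median of the members to 0.072.

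The wild-type pairs of the 2 lines, which share genotype and kind of table, also differed in these genes. KO controls were lower than Y402F controls in Arc, with 0.511 times the mean level (log2 difference -0.93, SE 0.16, limma adjusted p = 0.0194), in Dusp6, with 0.651 times (-0.59, SE 0.11, limma adjusted p = 0.0230), and in Dusp1, with 0.627 times (-0.61, SE 0.15, limma adjusted p = 0.0468). These 3 were the members called, all lower, beside 3.14% of all genes called lower and 7.96% called in either direction. Btg2 (-0.54, SE 0.24), Sik1 (-0.46, SE 0.34), Plk2 (-0.29, SE 0.11), Ptgs2 (-0.25, SE 0.29) and Dusp5 (-0.18, SE 0.14) had negative differences that did not pass, Homer1 differed by 0.08 (SE 0.17), and Nptx2 differed by 0.43 in the other direction (SE 0.14, limma adjusted p = 0.0991). The median was -0.37, beside -0.02 over all genes. For 7 members the KO control libraries lay below both Y402F control libraries, as for 30.9% of all genes, and for Nptx2 they lay above, as for 28.1%. The 3 calls were lost when any 1 of the 4 control libraries was left out and with a term for sex, chosen after seeing the data (-0.91, limma adjusted p = 0.0705 for Arc, -0.59, limma adjusted p = 0.0514 for Dusp6, and -0.69, limma adjusted p = 0.0870 for Dusp1), while in these fits the difference of Arc stayed between -0.97 and -0.89. Sex-linked expression, given below, split the 4 control libraries by line. The term for sex was therefore estimated from the mutant libraries alone and cannot separate sex from line here. The call of Dusp1 was also lost with no filter (limma adjusted p = 0.0733), with quantile normalization (0.0712), with only the 4 libraries (0.130) and with a replicate block (0.0565), and that of Dusp6 with only the 4 libraries (0.0746).

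Other measures moved with the line in these 4 control libraries. The summed level of the 7 dentate granule cell markers (Prox1, Dsp, C1ql2, Tdo2, Lct, Trpc6, Npnt, none at 0) was 69.4 and 71.0 scaled FPKM in KO controls and 96.7 and 96.9 in Y402F controls. Of the 7, 3 were called lower, beside 3.14% of all genes, and 2 had positive differences. Lct was at 8.12 and 7.92 in KO controls and 5.87 and 5.41 in Y402F controls. The summed level of the 10 choroid plexus markers was 50.2 and 49.3 in KO controls and 1150 and 1177 in Y402F controls; in the KO controls 2 and 3 of these markers were at 0. Ttr, the most abundant of them, was at 9.05 and 7.71 in KO controls and at 1015 and 1032 in Y402F controls. The summed level of the 6 oligodendrocyte markers was 4355 and 4477 in KO controls and 2803 and 2830 in Y402F controls. The 6 astrocyte markers went both ways: Aldoc, the most abundant, was at 1420 and 1473 in KO controls and 947 and 922 in Y402F controls, whereas Aqp4, Slc1a3, Slc1a2 and Gja1 were lower in both KO controls than in both Y402F controls. Xist, the transcript of the inactive X chromosome, was at 3.95 and 3.24 in KO controls and 0.0522 and 0.295 in Y402F controls, and the Y-linked Ddx3y at 0.0694 and 0.0695 against 5.77 and 4.78, so a female pattern went with one line and a male pattern with the other. The part of cell composition in the differences of the members was not tested, and in bulk RNA fewer cells of a type and less RNA per cell cannot be told apart.

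Among the mutant libraries, Y402F replicate 2 alone had a high choroid plexus sum, at 756 scaled FPKM against 40.2 to 54.5 in the other 3. The summed dentate granule level was 95.5 and 109 in KO and 120 and 123 in Y402F. Xist was at 25.5 and 40.1 in replicate 1 of KO and of Y402F and at 0.170 and 0.106 in replicate 2, so each mutant group held 1 library of each pattern. Without Y402F replicate 2 the difference of Arc between KO and Y402F was 0.42 and that of Ptgs2 turned to -0.13.

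**Figure D2:**
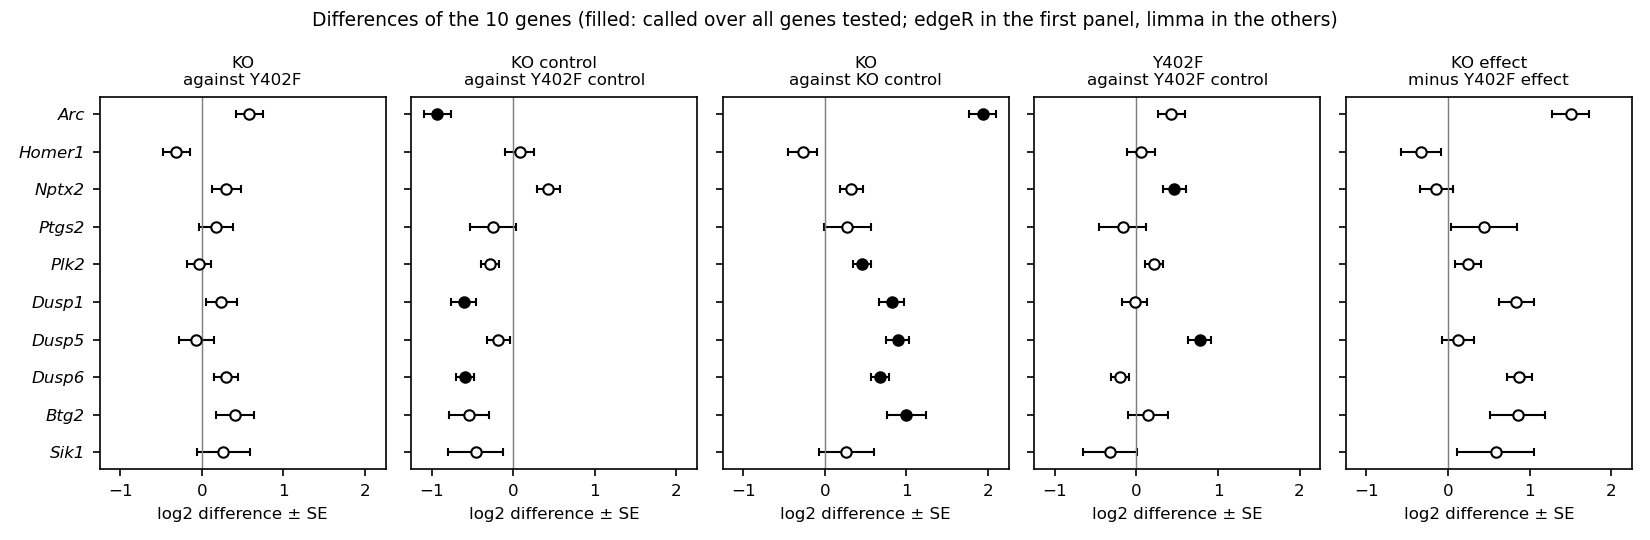
Log2 difference of each gene (horizontal axis, bars ± 1 SE) in the 5 comparisons, from edgeR in the first panel and limma in the others; filled points were called at an adjusted p under 0.05 over all genes tested. Filled points number 0, 3, 6, 2 and 0 from left to right, and Arc runs from -0.93 between the wild-type pairs to 1.93 in KO against its controls.

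Against their own wild-type controls, KO libraries were called higher for 6 members. Arc was 4.02 times higher in mean level (log2 difference 1.93, SE 0.16, limma adjusted p = 6.35e-05) and Btg2 2.37 times (1.00, SE 0.24, limma adjusted p = 0.0124). The phosphatases followed, with Dusp5 at 0.89 (SE 0.14, limma adjusted p = 0.00161), Dusp1 at 0.82 (SE 0.15, limma adjusted p = 0.00371) and Dusp6 at 0.68 (SE 0.11, limma adjusted p = 0.00202), and Plk2 at 0.46 (SE 0.11, limma adjusted p = 0.0125). The value of Dusp5 is subject to the gene model described above. Over the GENCODE length the lower bounds of its KO levels would be 6.37 and 7.39 scaled FPKM, against 7.07 and 7.83 in the KO controls. Nptx2 (0.33, SE 0.14), Ptgs2 (0.27, SE 0.29), Sik1 (0.26, SE 0.34) and Homer1 (-0.27, SE 0.17) were not called. The 6 calls, all higher, stand beside 16.7% of all genes called higher and 37.6% called in either direction, and the median of 0.57 beside 0.0013 over all genes. The KO libraries lay above both controls for 7 members, as for 35.7% of all genes, and below both for Homer1, as for 35.3%. The calls of Btg2 and Plk2 were lost without KO replicate 2 (0.61, limma adjusted p = 0.0587, and 0.33, limma adjusted p = 0.0740), that of Btg2 without KO control replicate 1 (0.0528) and that of Plk2 without KO control replicate 2 (0.0771). The summed choroid plexus level did not separate these groups (40.7 and 54.5 in KO), whereas 5 of the 7 dentate granule markers were called higher in KO and the summed oligodendrocyte level was 2802 and 3358 in KO against 4355 and 4477 in its controls.

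In Y402F against its own controls, Dusp5 and Nptx2 were the members called. Dusp5 differed by 0.77 (SE 0.14, limma adjusted p = 0.00378), a value subject to the gene model described above, and Nptx2 by 0.47 (SE 0.14, limma adjusted p = 0.0365), or 1.43 times the mean level of the controls. Arc was at 0.43 (SE 0.16, limma adjusted p = 0.0780), Plk2 at 0.21 (SE 0.11), Btg2 at 0.14 (SE 0.24), Homer1 at 0.06 (SE 0.17), Dusp1 at -0.02 (SE 0.15), Ptgs2 at -0.17 (SE 0.29), Dusp6 at -0.20 (SE 0.11) and Sik1 at -0.32 (SE 0.34). The 2 calls, both higher, stand beside 13.0% of all genes called higher and 32.3% in either direction, and the median of 0.10 beside 0.0016 over all genes; it turned to -0.034 without scaling and to -0.0015 without Y402F replicate 1. The Y402F libraries lay above both controls for 5 members, as for 34.6% of all genes, and below both for Dusp6, as for 34.0%. The summed choroid plexus level was 40.2 and 756 in Y402F against 1150 and 1177 in its controls, and 2 of the 7 dentate granule markers were called higher. The call of Nptx2 was lost without scaling of the FPKM (0.33, limma adjusted p = 0.115), with only the 4 libraries in the fit (0.0824), with a term for sex (0.0774), and without Y402F replicate 1 (0.33, limma adjusted p = 0.175), Y402F control replicate 1 (0.137) or Y402F control replicate 2 (0.0855). Quantile normalization called Arc (0.63, limma adjusted p = 0.0210) and Plk2 (0.39, limma adjusted p = 0.0178) as well, and fits without scaling called Dusp6 lower (-0.34, limma adjusted p = 0.0480).

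The difference between the mutant effects, KO less its controls minus Y402F less its controls, asks whether loss of the protein and loss of the autophosphorylation site moved a gene by unequal amounts. It was largest for Arc (log2 1.503, SE 0.23, limma adjusted p = 0.1002), then Dusp6 (0.88, SE 0.16, limma adjusted p = 0.136), Btg2 (0.85, SE 0.34, limma adjusted p = 0.345) and Dusp1 (0.84, SE 0.21, limma adjusted p = 0.198). It was 0.59 for Sik1 (SE 0.47), 0.44 for Ptgs2 (SE 0.41), 0.25 for Plk2 (SE 0.16), 0.12 for Dusp5 (SE 0.20), -0.14 for Nptx2 (SE 0.20) and -0.33 for Homer1 (SE 0.25). None of the 10 was called by limma, where 0.0309% of all genes were (4 genes), and 4 members had an unadjusted p under 0.05. The median was 0.51, beside 0.02 over all genes. By construction it combines KO against Y402F with the wild-type pairs and shares their libraries, so it is no separate evidence: for Arc the mutants differed by 0.59 and the wild-type pairs by -0.93, and for Dusp6 by 0.30 and -0.59. In its wild-type part, sex and line cannot be told apart.

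**Figure D3:**
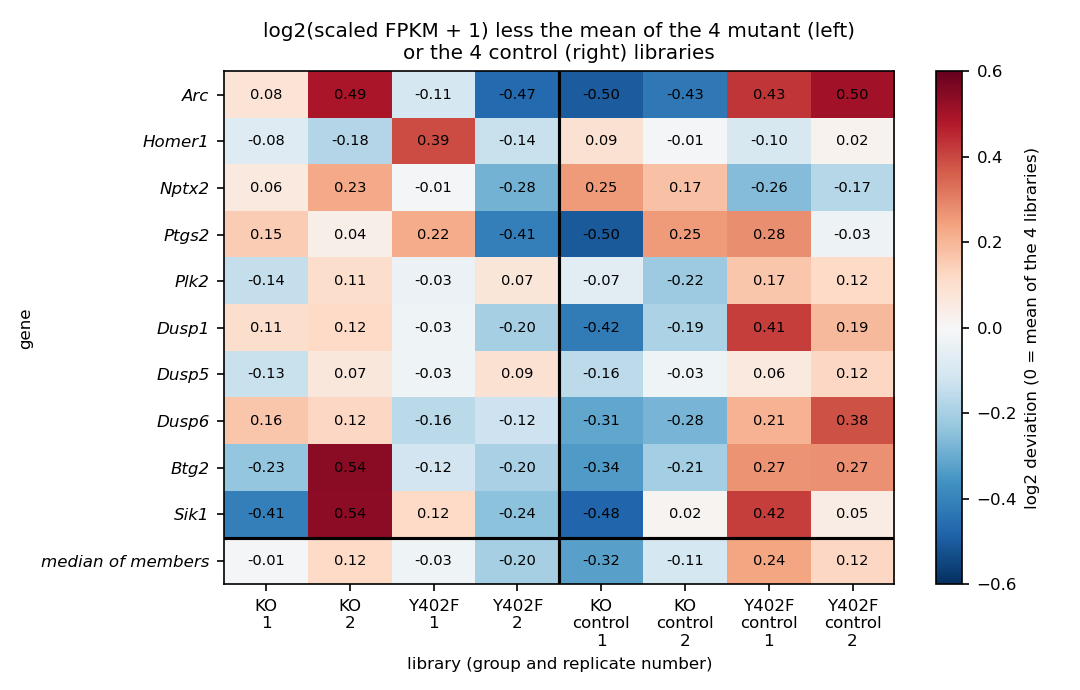
Deviation of log2(scaled FPKM + 1) of each gene in each library from the mean of the 4 mutant libraries (left) or the 4 control libraries (right), printed in each cell and coloured from -0.6 to 0.6; the bottom row is the median over the 10 genes. The median runs from -0.32 (KO control replicate 1) to 0.24 (Y402F control replicate 1) among the controls and from -0.20 (Y402F replicate 2) to 0.12 (KO replicate 2) among the mutants.

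Within each kind of table the 10 genes did not move as a single block. Arc, Btg2 and Sik1 were highest in KO replicate 2 among the mutants, by 0.49, 0.54 and 0.54 above the mean of the mutant libraries, while Homer1 was highest in Y402F replicate 1 (0.39) and Dusp5 and Plk2 stayed within 0.15 of the mean in all 4. The median deviation of the 10 was -0.01 and 0.12 in KO, -0.03 and -0.20 in Y402F, -0.32 and -0.11 in KO controls and 0.24 and 0.12 in Y402F controls. Replicates of a group differed in these genes about as much as in others: the median absolute log2 difference between replicates was 0.18 for the members and 0.17 for all tested genes in KO, 0.22 and 0.19 in Y402F, 0.13 and 0.15 in KO controls, and 0.10 and 0.15 in Y402F controls. Patterns were compared after centring each gene within the 4 mutant and within the 4 control libraries, which removes any difference between mutants and controls. The genes outside the 10 nearest to the members' median in this sense were Cblb, a ubiquitin ligase, Fgfr2, a growth factor receptor, Ccbe1, Capn10 and Ddx23, with root mean square differences of 0.05 to 0.06 on the log2 scale, against a median of 0.24 over the 12930 genes compared. The likeness does not extend to the mutant against control levels: Fgfr2 was at 8.35 to 10.8 scaled FPKM in the mutants and 14.4 to 21.7 in the controls, and Capn10 at 6.63 to 7.59 and 17.1 to 24.0. These genes were picked as the nearest, so their place below the median of all genes was fixed by that choice. Of the members themselves, Arc (0.26), Homer1 (0.27) and Nptx2 (0.31) lay farther from the members' median than 0.24. The other members lay at 0.09 (Dusp1) to 0.23 (Sik1).

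Transcription factors of the same activity programme had medians on the same side of 0 as the members in each of the 5 comparisons, although that of Y402F against its controls turned to -0.12 without scaling. Of 15 listed (Fos, Fosb, Fosl2, Jun, Junb, Egr1 to Egr4, Nr4a1 to Nr4a3, Npas4, Atf3, Ier2), 14 were tested. In KO against Y402F 12 of the 14 had positive differences, with a median of 0.54; Npas4 was called (1.94, SE 0.32, edgeR adjusted p = 0.0498), and Fos (1.35, SE 0.26) and Fosb (1.29, SE 0.29) were not. The call of Npas4 was lost with no filter, where 0 genes were called higher. It was kept with another scaling of the counts, RLE size factors (edgeR adjusted p = 0.0201). Npas4 was at 4.30 and 8.39 scaled FPKM in KO and 2.03 and 1.28 in Y402F. Between the wild-type pairs 5 of 14 were called lower in KO controls, among them Egr2 (-1.77), Egr1 (-1.04) and Nr4a3 (-0.67), and 0 higher, with a median of -0.64. Of all genes, 3.14% were called lower there and 7.96% in either direction. Egr1, a zinc finger factor, was at 19.2 and 18.6 scaled FPKM in KO controls, 39.1 and 40.7 in Y402F controls, 66.2 and 81.6 in KO and 59.1 and 43.4 in Y402F, the same order of groups as Arc. In KO against its controls 10 of 14 were called higher and 0 lower (median 0.94), in Y402F against its controls Jun was called higher (0.39; 0.24 without scaling, limma adjusted p = 0.162) and Egr2 lower (-1.52), with a median of 0.02, and in the difference of effects 0 were called (median 1.02). Of all genes, 16.7% were called higher in KO against its controls and 37.6% in either direction. For Y402F against its controls these shares were 13.0% and 32.3%. This list of transcription factors too had been seen in these libraries before.

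Other activity effectors, from a second list of 19 such as Bdnf, Nrn1, Gadd45b, Rgs2, Scg2 and Vgf, are given beside the members, with no test of one list against another. Of the 17 tested, 0 were called in KO against Y402F (median 0.14) and 0 between the wild-type pairs (median 0.08, which turned to -0.06 with quantile normalization). In KO against its controls Gadd45b, a DNA repair and demethylation factor, was called higher (0.56, SE 0.15, limma adjusted p = 0.0185), and in Y402F against its controls Rgs2, a regulator of G protein signalling, was called lower (-1.27, SE 0.22, limma adjusted p = 0.00289). These were the calls of the list there, whereas quantile normalization gave 5 higher and 0 lower in KO and 5 higher and 1 lower in Y402F. Of all genes, 37.6% in KO and 32.3% in Y402F were called in either direction before that normalization. The median of their difference of effects was 0.08, beside 0.51 for the 10 members.

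Paralogs of the members, which share their enzyme or scaffold class and are not all activity genes, gave a comparison within families. Of 16 listed, 15 were tested and Dusp2, at 0.0940 to 0.374 scaled FPKM, was not. Medians were 0.06 in KO against Y402F, -0.20 between the wild-type pairs and 0.03 in the difference of effects, with 0 called in each. Dusp4, a nuclear phosphatase, differed by 0.07 between the wild-type pairs and 0.01 in the difference of effects, where Dusp6 differed by -0.59 and 0.88; Dusp3 (0.09 and -0.0070), Dusp8 (-0.10 and 0.03) and Dusp7 (-0.36 and 0.40) gave the values of the other phosphatases. Homer2 stayed within 0.20 in each of the 5 comparisons, and Homer3 differed by 0.59 between the wild-type pairs (limma adjusted p = 0.0569). Nptx1, the pentraxin that assembles with Nptx2, was called higher in KO (0.40, limma adjusted p = 0.0123) and Y402F (0.46, limma adjusted p = 0.00724) than in their controls. Nptxr, their membrane-bound receptor, was called lower in KO (-0.69, limma adjusted p = 0.00359) and Y402F (-0.63, limma adjusted p = 0.00664). Processing and genotype cannot be told apart there, and 37.6% (KO) and 32.3% (Y402F) of all genes were called in either direction. Without scaling the difference of Nptx1 between KO and its controls was not called (0.26, limma adjusted p = 0.0602).

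Upstream of the members, 22 genes of the ERK and CREB pathways, all tested, showed no called member in KO against Y402F (median -0.05) or in the difference of effects (median 0.05). Between the wild-type pairs only the ERK target Elk1 was called (0.49, SE 0.11, limma adjusted p = 0.0387), and quantile normalization called none. Against their controls, 3 were called higher and 6 lower in KO and 3 higher and 7 lower in Y402F, beside 37.6% and 32.3% of all genes called in either direction. Quantile normalization gave 5 higher and 4 lower in KO and 4 higher and 5 lower in Y402F. The direction of the KO split thus depended on the scaling. In Y402F more genes were called lower than higher under each scaling, by a smaller margin with quantile normalization. Hras was lower in KO and in Y402F than in their controls (-1.03 and -0.79), as was the MEK gene Map2k2 (-0.86 and -0.80). Processing and genotype cannot be told apart in these values. Of 25 partners and targets of the member proteins, such as Shank scaffolds, AMPA receptor subunits and prostaglandin enzymes, 22 were tested. Their medians were -0.02 in KO against Y402F, -0.01 between the wild-type pairs and 0.07 in the difference of effects. Against their controls 4 were called higher and 3 lower in KO, and 6 higher and 3 lower in Y402F, including the AMPA receptor subunit Gria1 in KO (0.55, limma adjusted p = 0.00222) and the prostaglandin receptor Ptger1 in Y402F (1.44, limma adjusted p = 0.00260). Without scaling these splits became 3 higher and 4 lower in KO and 3 higher and 8 lower in Y402F, and with quantile normalization 7 higher and 2 lower in KO and 8 higher and 3 lower in Y402F.

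**Figure D4:**
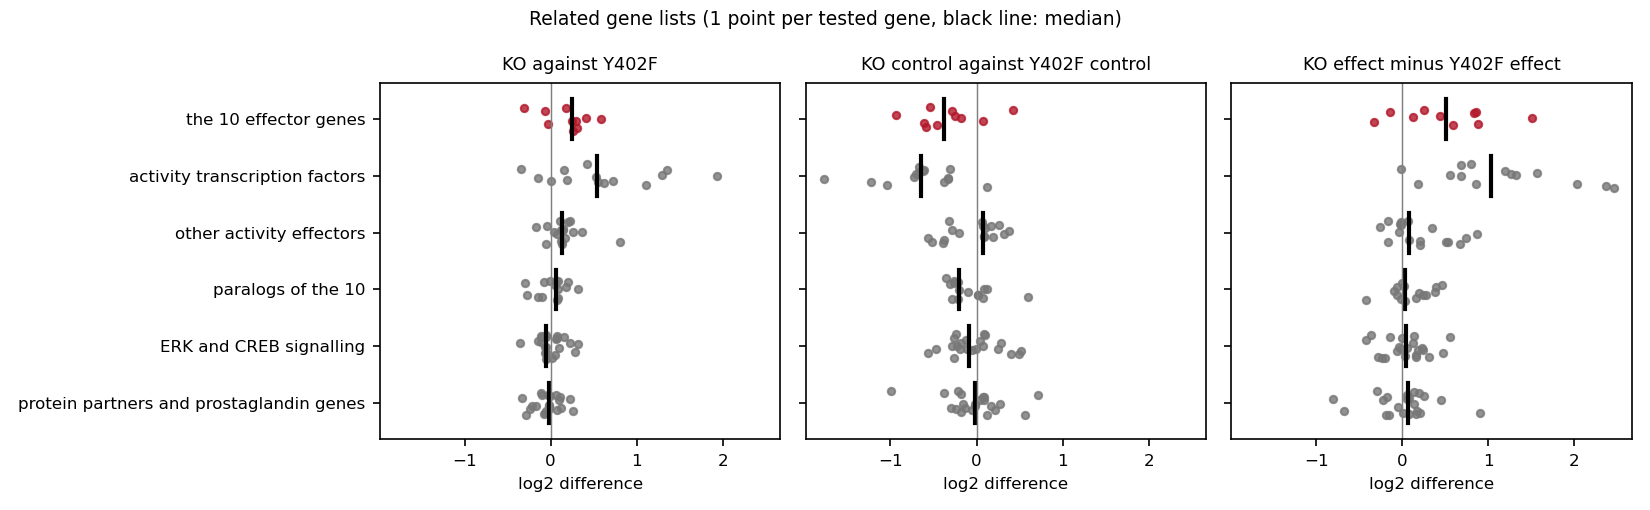
Log2 difference of each tested gene (points) and the median (black line) for the 10 effector genes and 5 related lists in KO against Y402F (edgeR), between the wild-type pairs and in the difference of the mutant effects (limma). The medians of the 10 members (0.25, -0.37 and 0.51) lie on the same side of 0 as those of the activity transcription factors (0.54, -0.64 and 1.02) and nearer to it.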

How the data were processed

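The 10 members, the related lists and the comparisons were chosen with earlier results of these data known. Per the file headers, the mutant tables deposited by the authors list for each gene its expected count, FPKM and length; those of the controls list FPKM with confidence bounds. The submitters' processing notes name Bowtie 1, HISAT and mm9 for every sample and Cufflinks for the controls, although control positions lie on GRCm38. Tables were joined by symbol (17596 genes) or Entrez identifier (62), with 6 genes dropped. FPKM was scaled by the median of ratios over 11427 genes that reached 1 FPKM in all libraries. KO and Y402F were compared with edgeR 4.0.16 (quasi-likelihood, TMM, filterByExpr, expected counts rounded to whole numbers, 2 residual degrees of freedom), with DESeq2 1.42.0 as an alternative. The other comparisons used limma-trend (limma 3.58.1) on log2(scaled FPKM + 1), which understates changes of low genes, where the mean reached 1 FPKM, over all 8 libraries in 4 groups (4 residual degrees of freedom). Tested on simulated data, edgeR recovered 72% of 2-fold and 97% of 4-fold changes over 13464 genes in KO against Y402F, and limma 100% of both over 12940 genes in the wild-type pairs. Each simulation gave all genes the same spread between libraries. That for limma was smaller than the spread of any member in the wild-type pairs (SE 0.11 for Plk2 to 0.34 for Sik1). In each simulation 200 genes changed at once, which eases the adjusted threshold, whereas the real KO against Y402F comparison called 2 genes. There Fos differed by more than 2-fold (log2 difference 1.35) and was not called (edgeR adjusted p = 0.105). Neither the edgeR nor the limma recovery therefore carries over to the members. Counting intervals are exact Poisson intervals at 95% and, like the deposited bounds, cover a single library. Named genes are all members, up to 3 genes with the smallest p of each list and comparison, and the 5 nearest in pattern (symbols of unnamed models, small RNAs and pseudogenes left out); the phosphatase and Homer paralogs beyond these were named after their values were seen. Some list genes the rule names are not reported here. Alternatives were a replicate block, each library left out, no filter, a pseudocount of 0.1, other scalings, only the 4 libraries compared and, chosen after seeing the data, a term for sex (Ddx3y above or below 1 scaled FPKM). In the controls the term for sex coincides with line, so it was estimated from the mutant libraries. R 4.3.3 and Python 3.11.15 were used.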

Additional observations from a re-analysis of the deposited data

How the results depend on the processing

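No member reversed a called direction under the alternatives run, but differences that were not called did change sign in some fits. In KO against Y402F these were Btg2, Dusp5, Plk2, Ptgs2 and Sik1, and between the wild-type pairs Homer1 and Ptgs2. Against controls they were Ptgs2 and Sik1 in KO, and Dusp1, Homer1 and Ptgs2 in Y402F. In the difference of effects it was Dusp5. In KO against Y402F the median of the members (0.25) was 0.23 with a replicate block, and 0.072 to 0.40 when each library was left out, with 0 to 1 members called. The replicate numbers carry no stated pairing: same-numbered KO and Y402F libraries deviated together with r = 0.203 across 12940 genes, the other 5 pairs of groups gave -0.0307 to 0.0484, and in the mutants the block equals the term for sex. The replicate block moved no other count of members called than that of the wild-type pairs, where Dusp1 was lost (limma adjusted p = 0.0565). Between the wild-type pairs the median (-0.37) was -0.45 with a pseudocount of 0.1, -0.22 with a term for sex and -0.61 to -0.27 with a library left out, and the 3 calls became 1 with only the 4 libraries, 0 with a term for sex and 0 without any 1 library. In KO against its controls the median (0.57) was 0.43 without scaling, 0.77 with quantile normalization and 0.47 to 0.70 with a library left out. In Y402F against its controls the median (0.10) was -0.034 without scaling, 0.21 with quantile normalization and -0.0015 to 0.17 with a library left out, and the 2 calls became 4 with quantile normalization, 1 with only the 4 libraries and 1 to 2 with a library left out. The median of the difference of effects (0.51) was 0.63 with a pseudocount of 0.1, 0.40 with a term for sex and 0.29 to 0.83 with a library left out. The cause of these changes was not tested, beyond the smaller number of libraries in the fits that leave some out.

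Over all genes, calls ranged from 1 (no filter) to 44 (without Y402F replicate 1) around 2 in KO against Y402F, from 169 to 1268 around 1030 between the wild-type pairs, from 3096 to 5111 around 4871 for KO and from 2823 to 4855 around 4184 for Y402F against their controls, and from 4 to 135 (term for sex) around 4 for the difference of effects. Leaving FPKM unscaled put the all-gene median at -0.12 in each mutant-control comparison, and the split of calls moved from 2165 higher and 2706 lower to 1396 and 3318 in KO, and from 1687 and 2497 to 983 and 3124 in Y402F; quantile normalization gave 2906 and 2205, and 2710 and 2145. Between the wild-type pairs the split of 624 higher and 406 lower became 374 and 333 with quantile normalization and 234 and 67 with only the 4 libraries. The lowest expected count of a member was 43 (Sik1, KO replicate 1), and the control tables give no counts.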
